A study of Mus musculus with 6 samples.

Results

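The genes of oxidative phosphorylation were followed in bulk samples of Prominin1+ cells from the mouse forebrain. The cells were sorted as radial glia, a type of cortical progenitor, but markers of neurons and other cell types were also present. The levels are therefore those of the mixed samples. Members were the rows annotated as protein coding whose symbol starts with mt- or names a subunit of complex I (Nduf with a, b, c, s or v and a number), complex II (Sdha to Sdhd), complex III (Uqcr), complex IV (Cox4 to Cox8) or complex V (Atp5). They numbered 96 of 52636 rows in the count table, or of 22027 protein coding rows. The mitochondrial genome encodes 13 of them, of which 7 belong to complex I, 1 to complex III, 3 to complex IV and 2 to complex V. The nuclear genome encodes 83, of which 36 belong to complex I, 4 to complex II, 8 to complex III, 18 to complex IV and 17 to complex V.

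Embryos were collected at E12.5, and Prominin1+ cells were sorted from dissociated forebrains and sequenced with an mRNA kit. All embryos were Smad1wt/fl;Smad5wt/fl, with 1 floxed allele of each of these transcription factors of BMP signalling. The mutants, called SmadNes, were also Nestin:Cre+/0, which places the Cre recombinase in neural progenitors, while their control littermates were Nestin:Cre0/0. The background was mixed from CD1, 129/ola and C57BL6, and each genotype had 3 pools of sorted cells, which share the names SF3, SF4 and SF5_6. How many embryos or litters made up a pool is not stated. Genotype p-values that leave out the pool name set a difference against the variation between these pools of cells. Those that include the pool name set it against the variation of the genotype difference from pool name to pool name. The test of the pool name itself, with a single library per genotype and name, uses that same variation.

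The library totals lay between 32997423 and 40744672 estimated counts, and levels are given as CPM, the counts of a gene per 1000000 counts of its library after scaling between libraries. The whole-gene rows of the targeted genes were not lower in the libraries labelled SmadNes, and both were higher there in 3 of 3 pools. Smad1 had 72.7, 77.8 and 76.1 CPM in controls (in the order SF3, SF4, SF5_6, used throughout) and 86.9, 92.9 and 85.7 CPM in SmadNes, and Smad5 had 290, 300 and 287 CPM against 388, 411 and 373 CPM. A whole-gene count does not show whether the floxed part was removed. The sort marker Prom1 lay between 106 and 132 CPM in all libraries, and all 12 radial glia markers passed the filter on low counts. Markers of cortical neurons (13 of 13), red blood cells (9 of 10), endothelium (7 of 8), microglia (9 of 9) and mesenchyme (8 of 8) also passed, and no marker was at 0 in all 6 libraries. In such bulk samples, fewer cells of a type and less RNA per cell cannot be told apart.

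Oxidative phosphorylation passes electrons from NADH through complex I, or from succinate through complex II, to complex III and then by cytochrome c to oxygen at complex IV. Complexes I, III and IV pump protons across the inner mitochondrial membrane, and complex V, the ATP synthase, uses the returning protons to make ATP. All complexes except complex II join core subunits made inside mitochondria to subunits imported from the cytosol. The mitochondrial genes are transcribed as long precursors from both strands of a small circular genome and cut at the transfer RNAs that lie between most of them. Neural progenitors are known to rely largely on glycolysis and to raise oxidative metabolism as neurons form.

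Pieces of the mitochondrial genome were also copied into nuclear chromosomes, and reads from such a copy and from its source can be alike letter for letter. A search of the GENCODE M21 transcripts with the sequences of the 13 mitochondrial mRNAs (at least 99% identity over at least 200 bases) found 7 copies, all annotated as unprocessed pseudogenes side by side on the minus strand at chr1:24611535-24616197 (GRCm38). Over the aligned bases 5 of the 7 were identical to the mitochondrial gene. Gm28661 matched 681 bases of mt-Co2, Gm10925 matched 678 of mt-Atp6, Gm28437 matched 783 of mt-Co3, Gm10222 matched 294 of mt-Nd4l and Gm28439 matched 876 of mt-Nd4. The other two each differ at a single base. Counted from base 1 of the mitochondrial transcript, mt-Nd3 and Gm28438 differ by T3C, and mt-Co1 and Gm29216 by A1066T. The stretches around these differences are shown 5′ to 3′ because no other base in the aligned 345 and 483 bases can assign a read to a row, with the differing base in capitals. The mitochondrial stretches are chrM:9459-9491 and chrM:6390-6423 on the plus strand, and those of the copies are chr1:24613087-24613119 and chr1:24616155-24616188 on the minus strand, all inside single-exon coding or pseudogene annotation.
mt-Nd3: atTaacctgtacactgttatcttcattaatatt
Gm28438: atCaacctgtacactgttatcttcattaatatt
mt-Co1: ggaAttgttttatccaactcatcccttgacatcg
Gm29216: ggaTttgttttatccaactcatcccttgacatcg

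Mitochondrial genes also overlap each other, so that the bases of the overlap belong to 2 rows. The word mRNA is used here for the row of a single mitochondrial gene, also where genes overlap. mt-Atp8 and mt-Atp6, both subunits of the proton channel side of ATP synthase, share 43 bases, and mt-Nd4l and mt-Nd4, both membrane subunits of complex I, share 7. The overlaps stand in capitals between 30 flanking bases on each side (GRCm38, chrM:7897-7999 and chrM:10137-10203, plus strand).
mt-Atp8 and mt-Atp6: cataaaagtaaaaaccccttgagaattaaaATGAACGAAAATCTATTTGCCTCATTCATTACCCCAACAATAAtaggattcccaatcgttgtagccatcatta
mt-Nd4l and mt-Nd4: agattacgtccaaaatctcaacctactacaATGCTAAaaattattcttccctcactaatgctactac

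For several mitochondrial genes, the row of the chromosome 1 copy held more counts than the row of the gene. Of the summed counts of a gene and its copy, the copy's row held 97.2% to 98.1% for mt-Co2 over the 6 libraries, 95% to 97.2% for mt-Atp6, 96.6% to 99% for mt-Co3 and 81.3% to 90.7% for mt-Nd3. The split was nearer even for mt-Nd4l, at 41.4% to 55.1%. It was slight for mt-Co1, whose copy covers only the end of the gene, at 1.90% to 2.91%, and at most 0.0419% for mt-Nd4. RSEM divides reads that fit several places by estimation, so the 5 mitochondrial rows with the large splits are uncertain as deposited. Gene counts alone cannot settle whether the counts in the copies' rows come from the mitochondrial genome or from chromosome 1.

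The row of mt-Co3, which encodes a core subunit of cytochrome c oxidase, reached the highest share in its copy of any library. As deposited it had 124, 46.1 and 90.7 CPM in controls and 97.9, 115 and 35.4 CPM in SmadNes, a 3.50-fold range over the 6 libraries. The highest and the lowest library lie in different genotypes and different pools. With the counts of Gm28437 added, mt-Co3 had 3785, 3394 and 3239 CPM in controls and 3796, 3406 and 3647 CPM in SmadNes, a 1.17-fold range. The coefficient of variation over the 6 libraries (CV, the SD as a percent of the mean) went from 42.7% to 6.52%. The row of Gm28437 alone had a CV of 6.57%. Since it held most of the sum, the lower CV is no test of whether the rows belong together.

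The row of mt-Nd3, a membrane subunit of complex I, behaved alike. It had 35.8, 25.5 and 53.3 CPM in controls and 47.6, 53.6 and 29.4 CPM in SmadNes as deposited. With Gm28438 it had 287, 272 and 286 CPM in controls and 285, 301 and 279 CPM in SmadNes. The pools that stood far apart in the deposited row were within a 1.11-fold range after the addition. For mt-Atp6 the CV went from 22.3% to 6.13%, for mt-Co2 from 15.4% to 6.93% and for mt-Nd4l from 15% to 10.1%. The copies' rows alone had CVs of 6.38% (Gm10925), 6.86% (Gm28661), 11.7% (Gm10222) and 3.13% (Gm28438). Of the 13 mitochondrial mRNAs, 8 had a CV below 10% as deposited and 12 with the copies added. This rise likewise rests mostly on the copies' rows and is no test of the addition.

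**Figure D1:**
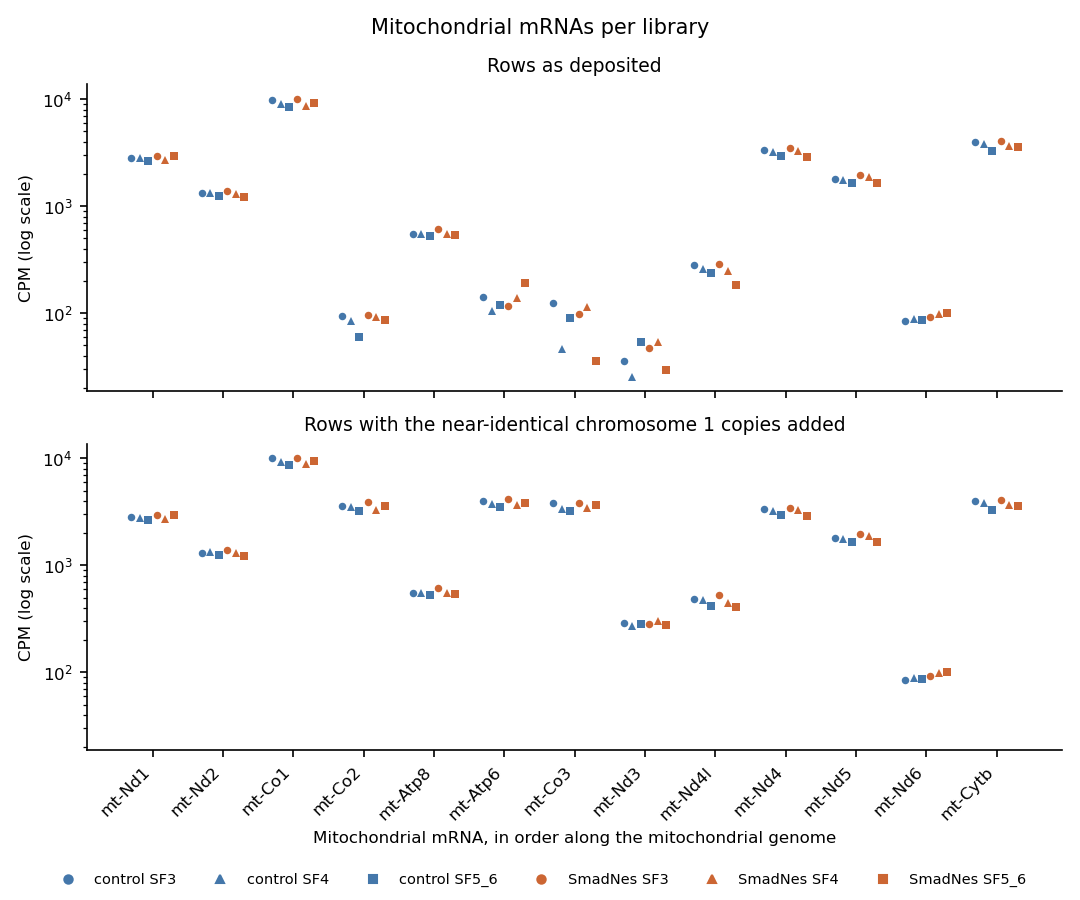
CPM of the 13 mitochondrial mRNAs (log axis) in each library, in order along the mitochondrial genome; colour marks the genotype and the marker shape the pool, above for the rows as deposited and below with the chromosome 1 copies added. With the copies, mt-Co2, mt-Atp6 and mt-Co3 move from below 200 CPM to between 3230 and 4137 CPM, and the libraries lie closer together.

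Levels of different mitochondrial genes were compared per kilobase of annotated transcript, with the copies added. No correction was made for short transcripts (204 bases for mt-Atp8, 297 for mt-Nd4l). For mt-Co2, mt-Atp6, mt-Co3 and mt-Nd3 the levels rest mostly on the copies' rows, whose origin is not settled. How reads were divided between the overlapping mt-Atp8 and mt-Atp6, and between mt-Nd4l and mt-Nd4, is not known. The order inside these pairs of genes is therefore uncertain. mt-Co1, the catalytic core of cytochrome c oxidase, was the highest at 6073 CPM per kb (mean over 6 libraries), followed by mt-Atp6 at 5601, mt-Co2 at 5133 and mt-Co3 at 4521 CPM per kb. These 4 genes lie along a single stretch of the genome, with mt-Atp8 among them, and the library ranges of successive genes in this order overlapped. mt-Cytb, the only mitochondrial subunit of complex III, had 3264 CPM per kb, and mt-Nd1, mt-Atp8 and mt-Nd4 had 2945, 2733 and 2314 CPM per kb. The other complex I subunits were lower, with 1548 CPM per kb for mt-Nd4l, 1255 for mt-Nd2, 976 for mt-Nd5 and 819 for mt-Nd3. mt-Nd6 was the lowest at 177 CPM per kb, and is the only protein coding gene of the other strand (chrM:13552-14070, minus strand, GRCm38). As deposited, without the copies, the order would put mt-Co3 at 108, mt-Nd3 at 117, mt-Co2 at 125 and mt-Atp6 at 199 CPM per kb, beside mt-Nd6.

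The rows of the 22 mitochondrial transfer RNAs held 0 counts in all libraries. The mitochondrial ribosomal RNAs mt-Rnr1 and mt-Rnr2 had 174 and 303 CPM per kb. Per the labels' protocols an mRNA kit was used, so these rows do not measure the amount of ribosomal or transfer RNA.

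Nuclear members, at up to 382 CPM per kb, were lower than all mitochondrial mRNAs except mt-Nd6 (copies added), and most were above the median gene. The median over the 77 tested nuclear members was 57.4 CPM per kb, against 6.84 over all 16869 tested genes and 16.4 over the 9921 tested genes that averaged 10 CPM or more. The median of the 13 mitochondrial mRNAs was 2733 CPM per kb with the copies added and 976 as deposited. By complex, the nuclear medians were 39.6 CPM per kb for complex I, 46.9 for complex II, 61.2 for complex III, 106 for the 12 tested members of complex IV and 106 for complex V. The ranges of the complexes overlapped.

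In complex V, the catalytic subunits led. Atp5b, the beta subunit that carries the catalytic sites, had 382 CPM per kb and Atp5a1, the alpha subunit, had 243. The ring subunit c is encoded by 3 genes that make the same mature protein, of which Atp5g2 had 217, Atp5g3 144 and Atp5g1 57.4 CPM per kb. Their libraries did not overlap on this scale. Atp5s and Atp5sl, low at 3.24 and 5.60 CPM per kb and named after their values were seen, carry the symbol but are not structural subunits of the synthase.

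In complex IV, the general isoforms were present and the tissue-specific ones were absent or nearly so. Cox4i1 had 170 CPM per kb, Cox8a 125, Cox6a1 122, Cox7c 118, Cox6b1 114 and Cox7a2 70.0. The isoforms known from lung, muscle, heart and testis made up the 6 members that did not pass the filter on low counts. Cox8b and Cox8c had 0 counts in every library, which allows a level of up to 3 counts, or at most 0.0909 CPM (for counting error only). Cox6a2 had 1 count in a single library, Cox7b2 at most 0.029 CPM, Cox7a1 0.074 to 0.294 CPM, and Cox4i2, an isoform linked to low oxygen, 0.116 to 0.352 CPM. The testis isoform Cox6b2 passed the filter at 1.88 to 3.11 CPM.

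Complex I members lay between 12 and 143 CPM per kb. The highest was Ndufa4, which is now assigned to complex IV although its symbol puts it here, and the next was Ndufc2, a membrane arm subunit, at 78.8. The lowest, Ndufb4, is uncertain because 55.6% of the summed counts of Ndufb4 and its pseudogene rows stood in the latter, led by Ndufb4c with 390 identical bases. Pseudogene rows of at least 95% identity existed for 21 nuclear members, but held over 1% of the summed counts for only 7. After Ndufb4 these were Cox7a2l (9.28%), Ndufa12 (8.63%), Ndufs5 (8.56%), Atp5l (5.84%), Atp5g2 (3.34%) and Atp5g1 (2.86%). In complex III, Uqcrh, the hinge protein, had 121 CPM per kb and Uqcrq 81.4, and the other 6 members lay between 52.7 and 64.6. In complex II, which is wholly nuclear encoded, Sdhb, the iron-sulfur subunit, had 65.4, Sdha, the flavoprotein, 51.9 and Sdhc, a membrane anchor, 21.4 CPM per kb.

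**Figure D2:**
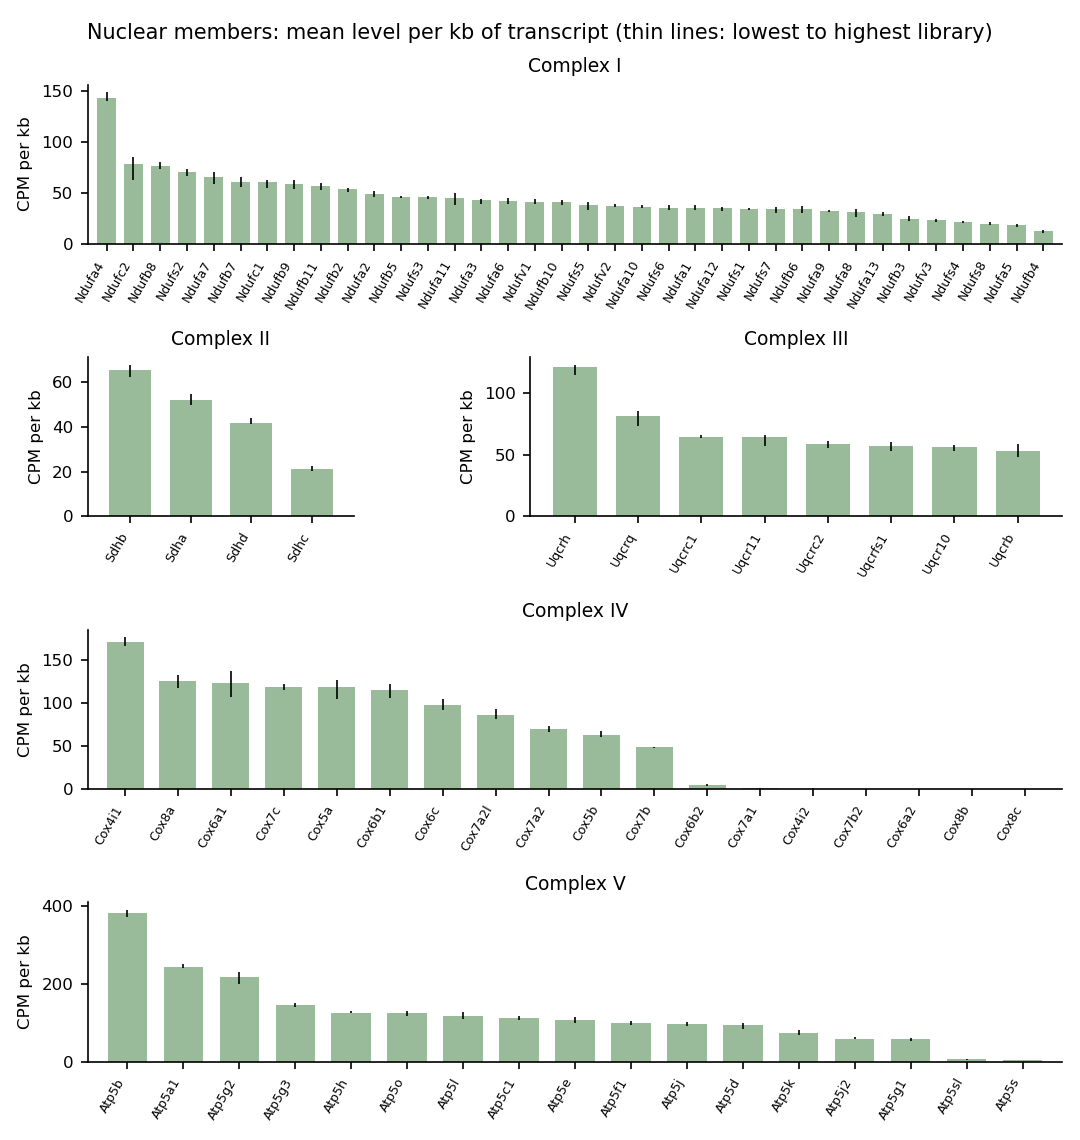
Mean CPM per kilobase of transcript of each nuclear member, by complex; bars start at 0 and thin lines run from the lowest to the highest of the 6 libraries. Atp5b stands at 382 CPM per kb, and the 6 isoforms at the right end of complex IV lie at or near 0.

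Nuclear members varied little among the 6 libraries. The median CV was 4.50% for the 77 tested nuclear members, 6.36% for tested genes of at least 10 CPM and 10.5% for all tested genes. A CV below 10% was found for 75 of 77 nuclear members (97.4%) and for 73.3% of tested genes of at least 10 CPM. Cox7b and Ndufb5 (Ndufb5 chosen with its values in view), accessory subunits of complexes IV and I, had the smallest CVs at 0.933% and 1.03%, and Ndufc2 and Cox6b2 the largest at 12.2% and 20.7%. Members differ from the average gene in level as well, so these shares describe the libraries and are no test.

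The comparison of SmadNes with control asks whether the presence of Cre together with the floxed alleles goes with another level of these genes. None of the 90 members that could be tested passed the test for a genotype difference, which does not show equal levels. With edgeR's quasi-likelihood test, 0 of 90 members and 0 of all 16869 tested genes (0.0%) had a Benjamini-Hochberg adjusted p below 0.05. At an unadjusted p below 0.05 there was 1 member, mt-Nd6, and 177 genes in all (1.05%). The pool names pair the libraries. With the pool as a block, edgeR called 4 genes in all (0.0237%) and 0 of 90 members. Smad5 was among the 4 genes, higher in SmadNes by 0.42 on the log2 scale (adjusted p = 0.00757, blocked edgeR). The blocked fit had 2 members with an unadjusted p below 0.05, mt-Nd6 and mt-Co2, where 6.23% of all genes had one. DESeq2 also called 0 members, with 7 genes in all without the block and 13 with it, and limma-voom called 0 members, with 1 and 8 genes in all. Without the pair SF5_6, the blocked edgeR fit called 149 genes in all and 1 member, mt-Nd3 as deposited (adjusted p = 5.18e-05), of whose summed counts the copy held 81.3% to 90.7%.

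The differences were small on the log2 scale. The median of SmadNes minus control was 0.01 for the 77 nuclear members, 0.06 for the 13 mitochondrial mRNAs as deposited and 0.04 for these with the copies added, against 0.00 for all tested genes. The nuclear members lay between -0.11 and 0.12, and 73 of 77 (94.8%) were within 0.1 of 0, against 85.7% of tested genes of at least 10 CPM. All 13 mitochondrial mRNAs had a positive difference with the copies added, between 0.01 and 0.16, and 11 of 13 as deposited. Mitochondrial mRNAs are cut from shared precursors and are not independent of each other.

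mt-Nd6, a membrane subunit of complex I, had 84.8, 88.8 and 87.1 CPM in controls and 92.9, 98.6 and 100 CPM in SmadNes. The SmadNes libraries were all higher than the controls, in 3 of 3 pairs. Its log2 difference was 0.16 ± 0.05 (SE, n = 3 per group), with an unadjusted p of 0.0145 and an adjusted p of 1 by edgeR, and with the block an adjusted p of 0.397, so it did not pass the test. It has no copy among the chromosome 1 pseudogenes. Of all tested genes, 4.77% had genotypes that did not overlap, and 2 of 90 members did, the other being Ndufc1, an accessory subunit of complex I. Ndufc1 had 19.7, 19.7 and 19.7 CPM in controls and 19.4, 18.2 and 17.3 CPM in SmadNes. Its log2 difference was -0.11 ± 0.07 (SE), with an adjusted p of 1 by edgeR.

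mt-Co2, a core subunit of cytochrome c oxidase, is another row with a large share in its copy. As deposited it had 93.5, 85.5 and 60 CPM in controls and 95.6, 92.5 and 86.5 CPM in SmadNes, higher in SmadNes in 3 of 3 pairs, and its log2 difference was 0.20 ± 0.16 (SE). With Gm28661 added it had 3603, 3498 and 3230 CPM against 3901, 3278 and 3556 CPM, higher in 2 of 3 pairs, with a log2 difference of 0.06 ± 0.09 (SE). For mt-Atp6 the difference was 0.28 ± 0.20 as deposited and 0.04 ± 0.08 with Gm10925. As deposited, 3 of 13 mitochondrial members (23.1%) and 5 of 77 nuclear members (6.49%) were higher in SmadNes in all 3 pairs, where 13.7% of all genes were. Lower in all 3 pairs were 0 of 13 and 8 of 77, where 14.2% of all genes were.

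Within each nuclear complex, the members with the smallest unadjusted p were also far from the threshold, with an adjusted p of 1 by edgeR. Beside Ndufc1, Ndufs5, of the complex I membrane arm, differed by 0.12 ± 0.09 (log2, SE), Sdhc of complex II by -0.05 ± 0.05 and Uqcrq of complex III by -0.08 ± 0.07. Cox7c of complex IV differed by -0.04 ± 0.04 and Atp5k, a small membrane subunit of complex V, by 0.09 ± 0.07. Each of these differences was within 2 SE of 0. The catalytic subunit Atp5b, with the highest count of the nuclear members, had 743, 745 and 709 CPM in controls and 743, 732 and 716 CPM in SmadNes. Its genotypes overlapped throughout.

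**Figure D3:**
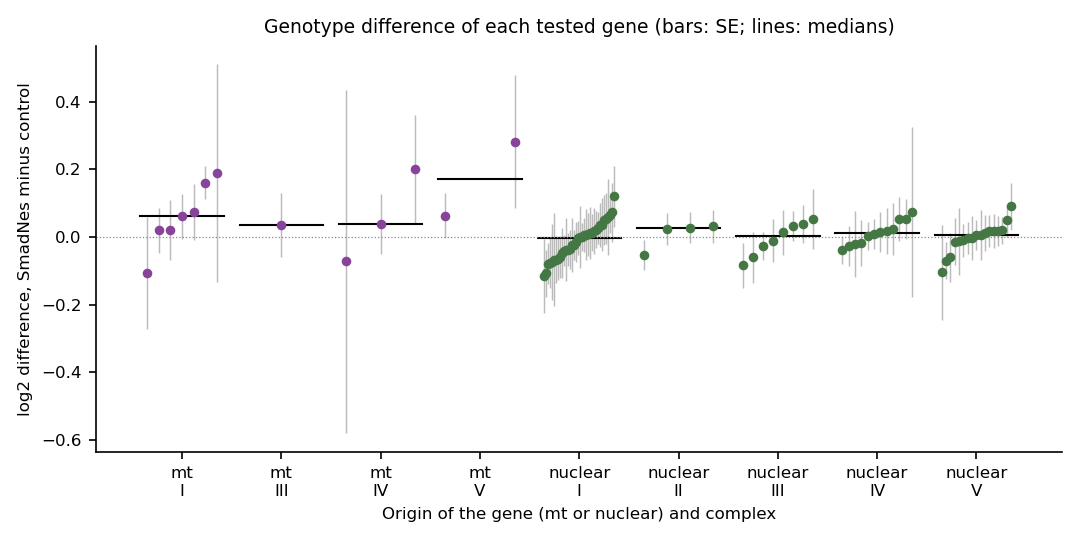
log2 difference of SmadNes minus control for each of the 90 tested members, rows as deposited, by origin and complex; points are edgeR estimates, grey bars are SE and black lines are medians. The nuclear members lie between -0.11 and 0.12, and the widest bars are those of mt-Co3, mt-Nd3 and the low nuclear member Cox6b2.

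The mitochondrial mRNAs together made up a similar share of each library. They held 2.41%, 2.28% and 2.20% of all counts in controls and 2.48%, 2.23% and 2.33% in SmadNes. The genotypes overlapped, and SmadNes was higher in the pools SF3 and SF5_6 and lower in SF4. The mean log2 share differed by 0.03 (unpaired exact two-sided permutation test, p = 0.6, n = 3 per group, where the smallest possible p is 0.1). Its SD between pools was 0.065 in controls and 0.077 in SmadNes. Taken as pairs, the differences were 0.04, -0.03 and 0.08 (paired exact permutation test, p = 0.5, where the smallest possible p is 0.25). With the copies added the share was 3.56%, 3.37% and 3.26% in controls and 3.68%, 3.27% and 3.51% in SmadNes.

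Set against the nuclear members, the mitochondrial counts were 4.43, 4.22 and 4.05 times the nuclear sum in controls and 4.58, 4.21 and 4.27 times in SmadNes. The pairs differed by 0.05, -0.004 and 0.08 on the log2 scale, with a mean of 0.04 (paired exact permutation test, p = 0.5, where the smallest possible p is 0.25). Without the pairing, the exact permutation test also gave p = 0.5 (n = 3 per group, SD between pools of 0.07 in each genotype). With the copies added the ratio was 6.56, 6.25 and 6.00 in controls and 6.80, 6.17 and 6.42 in SmadNes. The nuclear sums themselves were nearly level within a pool. Complex I had 1431, 1438 and 1361 CPM in controls and 1437, 1409 and 1354 CPM in SmadNes, and complex V 2440, 2419 and 2354 CPM against 2441, 2402 and 2399 CPM.

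**Figure D4:**
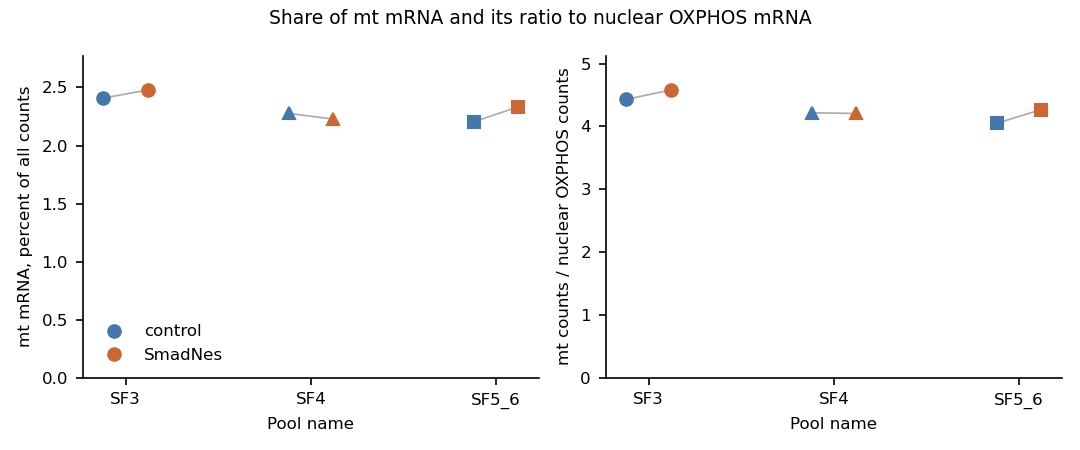
Left, the 13 mitochondrial mRNAs as a percent of all counts; right, their counts divided by those of the 83 nuclear members; both axes start at 0, and lines join the control and the SmadNes library of a pool name. The shares lie between 2.20% and 2.48% and the ratios between 4.05 and 4.58, with the genotypes overlapping.

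The genes that serve these complexes without being members gave the same count. Of the assembly factors, which build the complexes and are not part of them, 0 of 14 tested for complex I, 0 of 4 for complex II, 0 of 6 for complex III, 0 of 18 for complex IV and 0 of 3 for complex V had an adjusted edgeR p below 0.05, without or with the block. The smallest unadjusted p among them was that of Coa4, a complex IV assembly factor, with 3.73, 3.40 and 3.47 CPM in controls and 4.42, 4.82 and 4.59 CPM in SmadNes. Its libraries did not overlap, and its log2 difference was 0.38 ± 0.12 (SE, adjusted p = 1 by edgeR). The other lists also had 0 called members. These were 9 subunits and carriers that the symbol rule leaves out, such as Ndufab1 (cytochrome c and Cyc1 are on this list), 15 genes of mitochondrial DNA replication and transcription, 18 of mitochondrial RNA processing and stability, 9 regulators of biogenesis, 14 of the TCA cycle and 16 of import, chaperones and carriers.

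Among the regulators of biogenesis, the coactivators Ppargc1a and Ppargc1b had control and SmadNes libraries that did not overlap, as did 4.77% of all tested genes. Ppargc1a had 6.86, 6.87 and 6.52 CPM in controls and 5.84, 6.16 and 5.71 CPM in SmadNes, a log2 difference of -0.19 ± 0.10 (SE). Ppargc1b had 1.22, 1.22 and 1.18 CPM against 0.868, 0.910 and 1.07 CPM, a log2 difference of -0.34 ± 0.19 (SE). Neither passed the test (edgeR adjusted p = 1, and 0.801 and 0.836 with the block). Fastk, an RNA-binding protein needed for the mt-Nd6 mRNA, had 45, 47.3 and 44.9 CPM in controls and 43.1, 42.3 and 39.3 CPM in SmadNes. The Fastk libraries did not overlap between the genotypes either, and SmadNes was lower in 3 of 3 pairs. Its log2 difference was -0.14 ± 0.06 (SE, adjusted p = 1 by edgeR, and 0.673 with the block), so it did not pass the test.

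Differences between the pool names were larger than those between the genotypes. With genotype in the model, edgeR's F test of the pool name called 8 of 90 members, where it called 28.8% of all tested genes and 33.4% of those of at least 10 CPM. The nuclear members had 3 of 77 calls (3.90%) and the mitochondrial members 5 of 13 (38.5%). All 8 were lower in SF5_6 than in the mean of SF3 and SF4, and of all tested genes 13.1% were called in that direction. The mitochondrial calls were mt-Nd4l, mt-Nd4, mt-Nd5, mt-Cytb and mt-Co2, and the nuclear ones Ndufc2, Ndufa8 and Ndufa11 (mt-Co2 was not called with its copy added, when 7 members were). The number of calls depended on settings and single libraries. It was 16 without a filter on low counts, 2 with library totals as the only scaling, 5 with the pool name as the only term, 5 without the control library of SF5_6 and 5 without the SmadNes library of SF4.

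Ndufc2 (chr7:97400003-97407802, plus strand, GRCm38) had the smallest pool p of the members. It had 58.0, 58.5 and 48.6 CPM in controls and 56.3, 58.6 and 42.8 CPM in SmadNes. Both SF5_6 libraries were below the other 4, by 0.34 on the log2 scale on average (adjusted p = 0.00406, edgeR). Ndufa8 (chr2:36036326-36049406, minus strand), an intermembrane space subunit, had 29.6, 28.5 and 24.7 CPM in controls and 28.4, 27.5 and 22.7 CPM in SmadNes (adjusted p = 0.0205, edgeR). Ndufa11 (chr17:56717767-56722141, plus strand), a membrane subunit, had 27.2, 25.9 and 22.6 CPM against 24.1, 25.3 and 20.6 CPM (adjusted p = 0.0411, edgeR). Ndufa8 and Ndufa11 are named because they complete the 3 nuclear calls, and in each the SF5_6 library was the lowest of its genotype. With DESeq2, 6 members were called by pool name and Ndufc2 was the only nuclear member among them, so the calls of Ndufa8 and Ndufa11, with adjusted p of 0.157 and 0.281, ended there, as did that of mt-Co2 as deposited.

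Among the mitochondrial calls, mt-Nd4 had 3364, 3195 and 2934 CPM in controls and 3464, 3256 and 2915 CPM in SmadNes, with the SF5_6 libraries the lowest (adjusted p = 0.0141, edgeR). mt-Nd5 had 1793, 1769 and 1643 CPM in controls and 1967, 1864 and 1644 CPM in SmadNes (adjusted p = 0.0338, edgeR). mt-Cytb had 3967, 3796 and 3303 CPM in controls and 4096, 3668 and 3576 CPM in SmadNes (adjusted p = 0.0269, edgeR). In these 3 genes, each SF5_6 library was below all SF3 and SF4 libraries. mt-Nd4l, with its copy added, had 481, 479 and 414 CPM in controls and 532, 441 and 411 CPM in SmadNes (adjusted p = 0.0161, edgeR). Not all mitochondrial mRNAs had this pattern. mt-Nd1 had 2824, 2794 and 2659 CPM in controls and 2971, 2687 and 2974 CPM in SmadNes (adjusted p = 0.558 for the pool name, edgeR). mt-Nd6, which lies between the called genes mt-Nd5 and mt-Cytb, had an edgeR adjusted p of 0.361. Outside the members, the ribosomal RNA mt-Rnr1 was higher in SF5_6. It had 139, 143 and 198 CPM in controls and 151, 154 and 213 CPM in SmadNes (adjusted p = 7.51e-05, edgeR). mt-Rnr2 was not called by pool name (adjusted p = 0.227, edgeR). With an mRNA kit, these rows do not measure the amount of ribosomal RNA, and the cause of the difference was not tested.

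The direction was shared by many members that were not called. Of the tested members, 71 of 90 (78.9%) were lower in SF5_6 than in SF3, against 49.5% of all tested genes and 55.3% of those of at least 10 CPM. Complex I nuclear members were lower in 32 of 36 cases and complex II members in 2 of 4. The median of SF5_6 minus SF3 on the log2 scale was -0.07 for nuclear members and -0.15 for mitochondrial mRNAs with the copies added, against -0.02 for tested genes of at least 10 CPM. The members with the smallest pool p in the other direction, mt-Atp6 as deposited, Uqcrb and Ndufs1, did not pass the test, with edgeR adjusted p of 0.328, 0.246 and 0.301. With Gm10925 added, the direction of mt-Atp6 turned, with SF5_6 minus the mean of SF3 and SF4 at -0.10 on the log2 scale, against 0.28 as deposited.

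Cell type markers moved with the pool names as well. The summed level of the 13 neuron markers was 7493 and 7078 CPM in SF3 (control, SmadNes), 6497 and 6791 CPM in SF4 and 5588 and 5609 CPM in SF5_6, and 11 of 13 were called by pool name, where 28.8% of all tested genes were. Of these 11, 10 were lower in SF5_6 than in the mean of SF3 and SF4. The 12 radial glia markers summed to 2052 and 2213 CPM in SF3, 2357 and 2435 CPM in SF4 and 2629 and 2720 CPM in SF5_6, with 10 of 12 called. Against the direction of the sum, 2 of these 10 were lower in SF5_6 than in the mean of SF3 and SF4. Red blood cell markers ran from 116 CPM (control SF4) to 1126 CPM (control SF5_6), microglia markers from 15.7 to 100 CPM and mesenchyme markers from 255 to 1256 CPM. All 9, 9 and 8 tested genes of these 3 lists were called by pool name, and 2 of 7 endothelial markers, a share close to that of all tested genes, which summed to 17.9 to 24.0 CPM. Their part in the pool differences of the members was not tested.

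**Figure D5:**
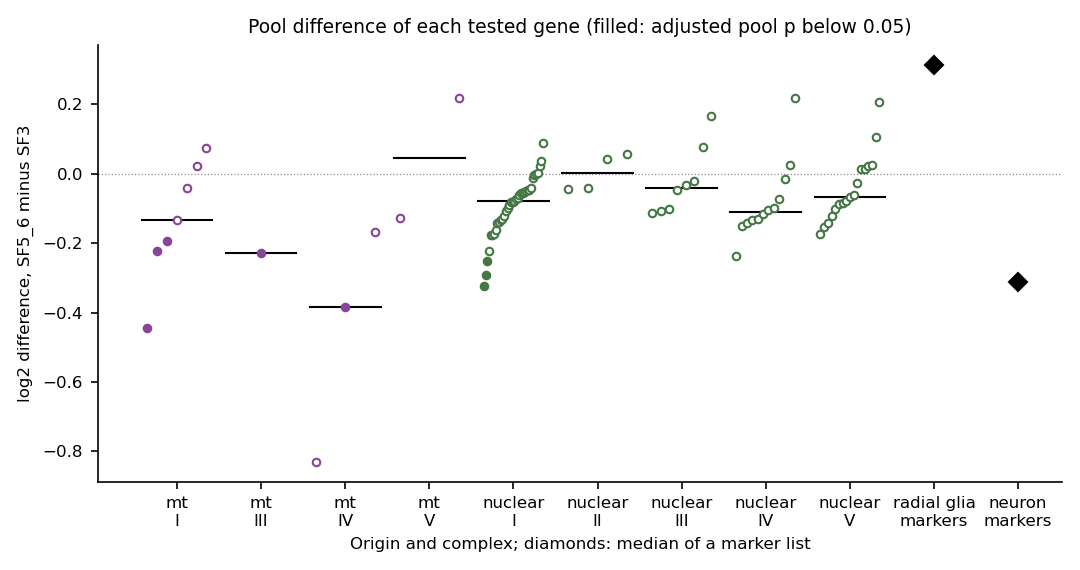
log2 difference of pool SF5_6 minus SF3 for each tested member, rows as deposited, by origin and complex (filled points have an adjusted pool p below 0.05, black lines are medians), with the medians of the radial glia and cortical neuron markers as diamonds. The 8 filled points all lie below 0, and the marker medians lie at 0.31 and -0.31.

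By genotype these marker lists had 0 called genes. Neuron markers summed to 5588 to 7493 CPM in controls and 5609 to 7078 CPM in SmadNes, and radial glia markers to 2052 to 2629 CPM and 2213 to 2720 CPM. The red blood cell markers had a median log2 difference of -0.55 with 0 of 9 positive, and the mesenchyme markers one of 0.19 with 8 of 8 positive. The pairs did not share these directions. Their medians were -0.12, 0.08 and -0.74 for red blood cell markers and 0.50, -0.65 and 0.31 for mesenchyme markers. The genotype ranges overlapped for each list. Their part in the small genotype differences of the members was not tested.

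Pool calls among the genes that serve the complexes are read beside the 28.8% of all tested genes that were called. They were 1 of 14 complex I assembly factors, 1 of 4 for complex II, 0 of 6 for complex III, 0 of 18 for complex IV and 0 of 3 for complex V. Of the other lists, 0 of 15 genes of mitochondrial DNA replication and transcription, 1 of 18 of RNA processing and stability, 2 of 9 biogenesis regulators, 2 of 14 of the TCA cycle, 1 of 16 of import, chaperones and carriers, and 2 of 9 subunits and carriers outside the symbol rule were called.

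Promoters were searched for letters bound by factors known to act on genes of this pathway, on both strands, in the RefSeq windows from 250 bases before to 50 after a gene's start (GRCm38.p6). A window was found for 69 of 83 nuclear members. The Nrf1-type letters GCATGCGC were present in 10 of 69 members (14.5%) and in 3.94% of 17492 protein coding genes. The Yy1-type letters AAGATGGC were present in 11 of 69 (15.9%) and in 3.57%, with 7 of 32 windows in complex I, 4 of 16 in complex V and 0 in the others. The ETS-type letters CCGGAAGT, of the family of Gabpa, were present in 5 of 69 (7.25%) and in 5.69%, and the Sp1-type letters GGGCGG in 28 of 69 (40.6%) and in 49.2%. A match is a description of the letters, not a binding site.

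Of the 3 nuclear members called by pool name, Ndufa8 and Ndufa11 are among the 10 of 69 members (14.5%) with the Nrf1-type letters. Ndufc2 holds none of the Nrf1, ETS or Yy1 types. A link between the letters and the pool calls was not tested. The 90 bases before the RefSeq start of Ndufa11 are shown as an example (GRCm38.p6, chr17:56717672-56717761, plus strand). The gene was chosen because edgeR called it by pool name, a call that DESeq2 did not make. The capitals mark the Nrf1-type letters, which occur there on both strands and overlap.
Ndufa11 promoter: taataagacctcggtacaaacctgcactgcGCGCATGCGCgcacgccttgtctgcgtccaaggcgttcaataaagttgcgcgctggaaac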

How the data were processed

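RNA of 6 pools was sequenced, 3 per genotype. Per the labels' protocols, the libraries were stranded and read in pairs. Per the submitters' processing notes, STAR 2.5.3a, RSEM 1.3.0 and DESeq2 1.18 were used with build GRCm38. The authors deposited unscaled expected counts per gene, all of them whole numbers, and by which step they were rounded is not stated in the labels.

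Counts were tested with edgeR 4.0.16 in R 4.3.3 (TMM scaling, its standard filter on low counts, quasi-likelihood F test, Benjamini-Hochberg adjustment over 16869 genes, threshold 0.05), first for genotype and then for pool name with genotype in the model. The fits were tested on simulated data. The filter left 90 members. Transcript lengths and positions came from GENCODE M21, to which all 96 members were matched by ID, using a principal coding transcript of median length. Copies were sought with blastn 2.17.0. Alternatives used DESeq2 1.42.0, limma 3.58.1, other scalings, no filter, each library left out, and the counts of the chromosome 1 copies added to the mitochondrial rows, which was chosen after seeing the data. Shares and ratios were tested by exact permutation, without and with the pairing.

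Deviations from the group means correlated at 0.493, 0.697 and 0.724 between libraries of the same pool name and at most at -0.0582 between others. Such deviations cancel out within a genotype, so positive values for the same name push the others down. The contrast between same and other names is therefore partly fixed in advance. The labels speak of pairs, so the names were taken to pair the libraries.

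Members and gene lists were chosen with earlier results of these data known. Genes named were all mitochondrial mRNAs, per complex the 3 with the smallest genotype p and the 2 with the highest level per kilobase, the isoform sets of complex IV and subunit c, up to 2 per list of related genes, the 3 with the smallest pool p in each direction, and Smad1 and Smad5. Others were named after their values were seen.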

Additional observations from a re-analysis of the deposited data

How the results depend on the processing

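The count of members called between the genotypes stayed at 0 under 19 of 20 alternatives. The exception was the fit with the replicate block without pair SF5_6, with 1 call, mt-Nd3 as deposited, whose copy held 81.3% to 90.7% of the summed counts. The count over all genes, 0 with the main test, was 7 with DESeq2 and 1 with limma-voom. With the replicate block it was 4 in edgeR, 13 in DESeq2, 8 in limma-voom and 6 with the copies added. Leaving out a pair with the block gave 10 (SF3), 48 (SF4) and 149 (SF5_6), and leaving out a library gave 0 to 0. Pool calls of members, 8 with the main test, were 5 with pool name only, 2 with library totals, 16 with no filter and 5 to 10 with a library left out. The causes of these moves were not tested.

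Leaving out a library moved the genotype difference of the mitochondrial share between -0.01 and 0.07 on the log2 scale and that of the mitochondrial to nuclear ratio between 0.00 and 0.07. Of 67 named genes with a fit, 0 were called in the main test and 66 stayed uncalled under the block, where Smad5 was called. The value of mt-Atp6 moved by more than its SE with the copies added. With 3 pools per genotype, exact tests of a single value cannot go below p = 0.1, or 0.25 over the 3 pairs, so no test of the share or the ratio is able to pass 0.05.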
